A study of Mus musculus with 12 samples.

Results

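The alternative pathway of complement and the receptors for its anaphylatoxins were followed in mouse kidney through 9 genes, C3, Cfb, Cfd, Cfi, Cfp, C3ar1, C5ar1, Cd55 and Cd59a, taken by symbol from a count table of 56722 genes. Each symbol matched 1 row, and all 9 genes passed the filter on low counts that left 19821 genes for testing. The animals were Pod-TRECK mice, a line in which diphtheria toxin injures podocytes, the filtering epithelial cells of the glomerulus. A control group of 3 mice received no toxin, and groups of 3 mice each received 100 ng of the toxin into the peritoneum and were killed 5, 14 or 21 days later. All 12 mice carried the Pod-TRECK genotype, and no toxin-treated mice without it and no vehicle-injected mice are among the samples, so an effect of the injection itself cannot be told apart from that of podocyte injury. Neither the promoter that drives the toxin receptor nor the age of the mice is given in the sources used here. Poly(A)-selected RNA of whole kidney was sequenced, so each value mixes all cell types of the organ.

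Complement is a cascade of plasma and tissue proteins that tags surfaces for removal and recruits inflammatory cells. In the alternative pathway, C3 turns over spontaneously, its fragment C3b binds factor B, and factor D cleaves the bound factor B to form the C3 convertase, which deposits more C3b and so amplifies itself. Properdin stabilises that convertase, factor I cleaves C3b with the help of cofactors, CD55 speeds the decay of convertases on the cell surface, and CD59 blocks the last step of the membrane attack complex. The small fragments C3a and C5a act on their receptors on myeloid and other cells. The liver makes most circulating C3, and the kidney is a known local source of it.

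Sums of gene counts per library ran from 31023852 to 46420299. The library of day 21 replicate 2 stood apart from the other libraries of its group. Its summed level of 8 proximal tubule markers was 22510 CPM (CPM are counts relative to the library total, which was scaled by TMM factors throughout), against 2166 and 1559 in day 21 replicates 1 and 3, and its 6 podocyte markers summed to 222 CPM against 100.0 and 82.6. Podocyte markers summed to 279 to 299 CPM in controls and to 83.9 to 101 CPM at day 5, and Nphs1, which encodes the slit diaphragm protein nephrin, fell from 20.0 to 24.6 CPM in controls to 1.19 to 1.99 CPM at day 5. Because day 21 replicate 2 also widens the spread that all groups share in the fit, results that change without it are given both ways. Day 14 replicates 1 and 2 differed from each other less than any other pair within a group, with a chi-square per degree of freedom of 4.59 against 11.7 for the next closest pair, which is above sampling noise, and they were kept as 2 samples.

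Promoter windows from RefSeq (build GRCm38.p6, 250 bases before to 50 after the gene start) were found for 7 of the 9 genes. Windows of 3 genes that rose are printed, C3 as the gene with the largest rise, Cfp and C3ar1 as genes whose windows hold a searched motif. Capitals mark motif matches. The C3 window lies on the minus strand at chr17:57228087-57228386, that of Cfp on the minus strand at chrX:20931506-20931805, and that of C3ar1 on the minus strand at chr6:122856108-122856407.
C3: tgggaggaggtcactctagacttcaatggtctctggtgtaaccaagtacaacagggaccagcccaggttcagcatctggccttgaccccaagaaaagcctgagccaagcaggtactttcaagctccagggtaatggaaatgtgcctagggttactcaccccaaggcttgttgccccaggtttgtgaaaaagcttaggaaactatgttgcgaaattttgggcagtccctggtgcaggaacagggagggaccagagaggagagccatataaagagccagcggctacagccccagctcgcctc
Cfp: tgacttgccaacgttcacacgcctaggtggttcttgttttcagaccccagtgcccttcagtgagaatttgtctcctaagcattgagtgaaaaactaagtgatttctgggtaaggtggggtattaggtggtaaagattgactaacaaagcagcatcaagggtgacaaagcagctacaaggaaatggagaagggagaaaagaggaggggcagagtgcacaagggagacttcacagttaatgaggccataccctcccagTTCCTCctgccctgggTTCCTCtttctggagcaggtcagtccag
C3ar1: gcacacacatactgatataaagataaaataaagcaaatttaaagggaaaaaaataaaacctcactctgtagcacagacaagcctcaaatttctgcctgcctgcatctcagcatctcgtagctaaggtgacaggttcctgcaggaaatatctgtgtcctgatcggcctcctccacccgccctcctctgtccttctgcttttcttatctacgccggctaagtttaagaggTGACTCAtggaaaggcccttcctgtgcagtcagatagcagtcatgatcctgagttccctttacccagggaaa
The Cfp window holds the PU.1 core GAGGAA read on the opposite strand, as TTCCTC, at 2 places that begin 6 and 22 bases after the gene start. The C3ar1 window holds the AP-1 motif TGANTCA, as TGACTCA, from 22 bases before the start. On both strands the C3 window holds neither of these motifs, nor TTCNNNGAA of STAT factors, nor the NF-kB and interferon-stimulated response element consensus. Among 32817 promoter windows of the same length, the PU.1 core was found in 28.3%, the NF-kB consensus in 8.46%, the STAT motif in 8.29%, the AP-1 motif in 7.81% and the interferon-stimulated response element in 3.43%. Of the 7 windows of the pathway, 2 held the PU.1 core (Cfp and Cd59a), 1 held the AP-1 motif (C3ar1), 1 held the interferon-stimulated response element (Cd59a), and 0 held the NF-kB or STAT motif. These are matches of letters only, and the data hold no measurement of binding.

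Levels of different genes were compared as mean CPM per kilobase of gene length. In control kidneys Cfb was the most abundant of the 9 genes, at 75.1 CPM per kilobase, followed by Cfd at 46.7 and Cd59a at 24.4. C3 came next at 3.54 and Cd55 at 3.31, Cfi stood at 1.68 and Cfp at 0.509, and the receptors were lowest, with C3ar1 at 0.235 and C5ar1 at 0.106. The ranges of the 3 control libraries overlapped between Cfb and Cfd, between Cfd and Cd59a, and between C3 and Cd55, so those neighbours did not differ beyond their spread. By day 5 C3 had reached 84.8 CPM per kilobase, with a range that overlapped that of Cfb at 78.7. At day 14 C3 was first at 619 CPM per kilobase, with no overlap with Cfd, the next gene, at 241, and Cd55 had become the lowest of the 9 at 0.862. At day 21 the ranges of C3 (46.3 to 271), Cfd and Cfb overlapped again, as did those of C3ar1, Cfp, Cd55 and C5ar1.

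**Figure D1:**
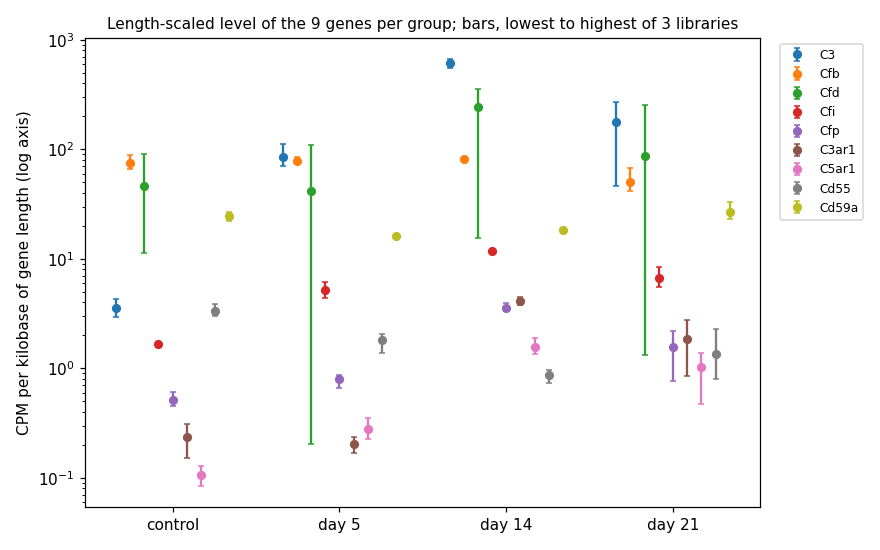
Mean level of each gene in each group, in CPM per kilobase of gene length on a log axis, with bars from the lowest to the highest of 3 libraries. C3 moves from 3.54 in controls to 619 at day 14, while Cfb stays between 50.8 and 81.7 and Cfd has the widest bars.

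C3, the central protein of the cascade, had the largest change. It was at 17.7, 22.7 and 15.4 CPM in the control libraries, 380.4, 374 and 585 CPM at day 5, 3507, 3364 and 2903 CPM at day 14, and 1142, 243 and 1426 CPM at day 21. Every toxin library lay above every control library, and the low value at day 21 was that of replicate 2. Relative to control, C3 rose by 4.58 ± 0.55 on the log2 scale at day 5 (SE, 24.0-fold, adjusted p = 0.000361), by 7.45 ± 0.63 at day 14 (174.9-fold, adjusted p = 1.15e-05) and by 5.65 ± 0.58 at day 21 (50.3-fold, adjusted p = 0.000239). From day 5 to day 14 it rose by a further 2.87 ± 0.51 (adjusted p = 0.00134), and from day 14 to day 21 it fell by 1.80 ± 0.49 (adjusted p = 0.0348). The latter call was lost when any 1 of the day 14 libraries was left out (adjusted p from 0.0724 to 0.0964). Day 21 against day 5 gave 1.07 ± 0.48 (adjusted p = 0.113) with all libraries and 1.51 ± 0.20 (adjusted p = 6.38e-05) without day 21 replicate 2. In whole tissue, a higher share of cells that make a transcript and more transcript per cell cannot be told apart, and this holds for all values here.

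Cfb, which encodes the protease of the convertase, was abundant throughout and moved little. Its levels were 366, 491 and 393 CPM in controls, 472, 413 and 426 CPM at day 5, 458, 458 and 445 CPM at day 14, and 229, 372 and 246 CPM at day 21. Differences from control were 0.07 ± 0.18 at day 5 (adjusted p = 0.845) and 0.12 ± 0.18 at day 14 (adjusted p = 0.575). At day 21 Cfb fell by 0.56 ± 0.18 (adjusted p = 0.0295), although the libraries of that group overlapped the controls, and by 0.82 ± 0.11 (adjusted p = 6.56e-05) without day 21 replicate 2. With all 12 libraries this call was lost when control replicate 2 or 3 or day 21 replicate 1 or 3 was left out (adjusted p from 0.0534 to 0.102). Days 5 and 14 were not called different for Cfb (0.06 ± 0.18, adjusted p = 0.816), and at day 21 it fell by 0.69 ± 0.18 from day 14 (adjusted p = 0.0317) and by 0.63 ± 0.18 from day 5 (adjusted p = 0.0287). The fall from day 14 was lost on leaving out any day 14 library or day 21 replicate 1 or 3 (adjusted p from 0.0559 to 0.102), and the fall from day 5 on leaving out any day 5 library or day 21 replicate 1 or 3 (adjusted p from 0.0641 to 0.096). The scaling also mattered for this gene. With library totals in place of TMM factors, which moved the median log2 change of all genes by 0.143, 0.728 and 0.485 at days 5, 14 and 21, Cfb gave 0.85 at day 14 (adjusted p = 0.000119), 0.64 for day 14 against day 5 (adjusted p = 0.0012) and -0.12 at day 21 (adjusted p = 0.375). Reads of Cfb were also listed under Gm20547, an annotated locus on the same strand that overlaps Cfb and whose counts were 95.02% to 98.1% of those of Cfb, so the 2 symbols are largely 1 measurement.

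The proportion of substrate to protease was described as the ratio of their CPM per kilobase of gene length, without a test. The ratio of C3 to Cfb was 0.0413 to 0.0511 in the control libraries, 0.850 to 1.45 at day 5 and 6.88 to 8.07 at day 14. At day 21 the values were 5.27 and 6.12 in replicates 1 and 3 and 0.691 in replicate 2, so that group spanned the range of day 5.

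Cfd encodes factor D, the protease that activates factor B and a well known secretion product of fat cells. Its levels were 36.6, 89.2 and 11.1 CPM in controls, 0.198, 107 and 14.3 CPM at day 5, 347, 345 and 15.0 CPM at day 14, and 1.28, 5.84 and 249.8 CPM at day 21. Libraries of the same group stood far apart, and all groups overlapped. None of the 6 comparisons passed the test for Cfd (2.37 ± 1.90 at day 14 against control, adjusted p = 0.299), and the standard errors were 1.81 to 1.91 on the log2 scale, the widest of the 9 genes. The gene with the profile closest to Cfd over the 12 libraries was Adipoq, the fat cell hormone adiponectin, with a root mean square difference of 0.343 on the centred log2 CPM scale against a standard deviation of 3.12 for Cfd itself. The next closest were Plin1 (0.644) and Cidec (0.738), both genes of the lipid droplet of fat cells. There were 4.08 to 8.18 counts of Cfd per count of Adipoq (median 5.79) in the 11 libraries in which Adipoq was detected. Day 5 replicate 1 had 6 counts of Cfd and 0 of Adipoq, and a count of 0 allows up to 3 counts. Adipoq was picked as the nearest gene, so this closeness restates the choice. The 8 adipocyte markers, none at 0 in a whole group, summed to 1043 to 1415 CPM in controls, 836 to 1376 CPM at day 5, 166 to 627 CPM at day 14 and 208 to 510.5 CPM at day 21. Most of that sum in controls was Lpl, the lipoprotein lipase, at a mean of 1004 CPM, which fell to 193 CPM at day 14 (-2.38 ± 0.50, adjusted p = 0.00205). The median log2 change of the 8 markers at day 14 was 1.58, with 2.18 ± 1.67 for Adipoq (adjusted p = 0.28) and 2.24 ± 1.63 for Cidec (adjusted p = 0.256). Of the 8, 0 rose in any comparison with control and 1 fell at days 14 and 21. Of all tested genes, 9.77%, 31.2% and 24.3% rose at days 5, 14 and 21, and 5.09%, 28.8% and 18.5% fell. The part of adipose tissue in the Cfd values was not tested.

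**Figure D2:**
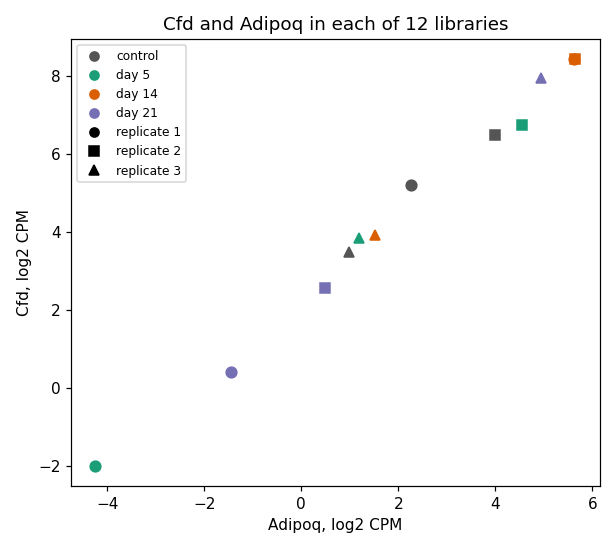
Level of Cfd against that of Adipoq in each of the 12 libraries, both in log2 CPM, coloured by group and shaped by replicate. The points lie along a line from day 5 replicate 1 at the lower left to day 14 replicates 1 and 2, which coincide, at the upper right, and libraries of 1 group lie far apart.

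Cfi, the protease that inactivates C3b, was above control at every stage, with little spread within the control and day 14 groups. It was at 4.54, 4.52 and 4.54 CPM in controls, 13.7, 11.9 and 16.4 CPM at day 5, 32.7, 32.0 and 31.3 CPM at day 14, and 23.0, 15.0 and 16.1 CPM at day 21. No toxin library overlapped the controls. The rises over control were 1.63 ± 0.16 at day 5 (3.09-fold, adjusted p = 0.000135), 2.82 ± 0.17 at day 14 (7.06-fold, adjusted p = 1.9e-06) and 1.99 ± 0.17 at day 21 (3.98-fold, adjusted p = 8.54e-05). Between day 14 and day 21 Cfi fell by 0.83 ± 0.16 (adjusted p = 0.00817), the only fall of that comparison among the 9 genes to hold after removal of each day 14 and each day 21 library in turn. Between days 5 and 14 Cfi rose by 1.19 ± 0.16 (adjusted p = 0.000293). Day 21 against day 5 gave 0.36 ± 0.16 (adjusted p = 0.0995), and 0.47 ± 0.15 (adjusted p = 0.0174) without day 21 replicate 2. The ratio of Cfi to C3 in CPM per kilobase was 0.388 to 0.574 in controls, 0.0547 to 0.0702 at day 5 and 0.0182 to 0.0210 at day 14. At day 21 this ratio was 0.0392, 0.120 and 0.0220.

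Cfp encodes properdin, the stabiliser of the convertase, which leukocytes make. It was at 2.20, 1.63 and 1.64 CPM in controls, 2.34, 3.13 and 3.02 CPM at day 5, 12.1, 12.0 and 14.1 CPM at day 14, and 6.37, 2.76 and 7.76 CPM at day 21. All toxin libraries exceeded all controls, narrowly at day 5. Cfp rose over control by 2.80 ± 0.32 at day 14 (6.98-fold, adjusted p = 6.19e-05) and by 1.63 ± 0.32 at day 21 (3.10-fold, adjusted p = 0.00384). The day 5 difference of 0.64 ± 0.32 did not pass with all libraries (adjusted p = 0.213) and passed without day 21 replicate 2 (0.64 ± 0.17, adjusted p = 0.0121). From day 5 to day 14 Cfp rose by 2.16 ± 0.31 (adjusted p = 0.000461). From day 14 to day 21 Cfp fell by 1.17 ± 0.30 (adjusted p = 0.0268), a call lost without any 1 of the day 14 libraries (adjusted p from 0.0706 to 0.0833). Day 21 exceeded day 5 by 0.99 ± 0.31 (adjusted p = 0.0359), a call lost on leaving out any day 5 library or day 21 replicate 1 or 3 (adjusted p from 0.0792 to 0.142) and with limma-voom (0.92, adjusted p = 0.0625), while day 21 replicate 2 overlapped the day 5 libraries.

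C3ar1, the receptor for C3a, was at 1.34, 1.06 and 0.648 CPM in controls and at 0.726, 0.867 and 1.01 CPM at day 5, so these groups overlapped (-0.21 ± 0.42, adjusted p = 0.786). At day 14 it stood at 19.2, 17.6 and 16.2 CPM, and at day 21 at 11.8, 3.63 and 8.65 CPM, all above every control and day 5 library. The rise over control was 4.12 ± 0.40 at day 14 (17.3-fold, adjusted p = 2.46e-05) and 2.98 ± 0.39 at day 21 (7.91-fold, adjusted p = 0.000706). From day 5 to day 14 alone C3ar1 rose by 4.33 ± 0.41 (adjusted p = 4.7e-05). From day 14 to day 21 C3ar1 fell by 1.13 ± 0.34 (adjusted p = 0.0486), which was lost without any 1 of the day 14 libraries or without day 21 replicate 3 (adjusted p from 0.0679 to 0.135).

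C5ar1, the receptor for C5a, was the least abundant gene in controls, with 7 to 11 counts per library (0.326, 0.271 and 0.216 CPM). It was at 0.660, 0.895 and 0.579 CPM at day 5, 3.45, 3.85 and 4.85 CPM at day 14, and 3.17, 1.22 and 3.55 CPM at day 21. All toxin libraries exceeded all controls. At day 5 the difference of 1.38 ± 0.43 missed the threshold with all libraries (2.60-fold, adjusted p = 0.0536) and passed without day 21 replicate 2 (1.38 ± 0.27, adjusted p = 0.00251). C5ar1 rose by 3.88 ± 0.41 at day 14 (14.7-fold, adjusted p = 3.93e-05) and by 3.28 ± 0.41 at day 21 (9.70-fold, adjusted p = 0.000566), and day 21 differed from day 14 by -0.60 ± 0.33 (adjusted p = 0.232). C5ar1 at day 14 exceeded day 5 by 2.51 ± 0.37 (adjusted p = 0.000517). The ratio of C3ar1 to C5ar1 in CPM per kilobase was 1.79 to 2.44 in controls and 0.578 to 1.05 at day 5, without overlap. It was 1.99 to 3.31 at day 14 and 1.46 to 2.22 at day 21. That difference between the receptors at day 5 was not tested.

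Markers of leukocytes were high at day 14, as were properdin and the receptors. The 12 macrophage and monocyte markers summed to 145 to 160 CPM in controls, 124 to 135 CPM at day 5, 835 to 870.2 CPM at day 14 and 275 to 466 CPM at day 21, and 0 of them were at zero counts in a whole group. At day 14, 11 of the 12 rose and 1 fell, against 31.2% and 28.8% of all tested genes. At day 5, 1 rose (Cd68, 1.53 ± 0.35, adjusted p = 0.0141) and 1 fell (Csf1r, -0.68 ± 0.10, adjusted p = 0.00161), against 9.77% and 5.09%, and without day 21 replicate 2 in the fit 6 rose and 2 fell, against 17.4% and 14.9%. Csf1r and Mertk, which stood at means of 48.6 and 63.4 CPM in controls and 30.4 and 43.8 CPM at day 5, made up most of the sum at both stages, and the median log2 change of the 12 at day 5 was 0.47. The 10 neutrophil markers were scarce, at 0.801 to 0.895 CPM in sum in controls, 1.29 to 2.49 CPM at day 5, 5.40 to 6.43 CPM at day 14 and 2.12 to 4.37 CPM at day 21. Ly6g, Camp and Ngp were at 0 in all controls, and Ly6g and Camp were at 0 in all day 5 libraries. Only 4 of the 10 neutrophil markers were abundant enough to test. Of these 3 rose at each day, against 9.77%, 31.2% and 24.3% of all tested genes at days 5, 14 and 21. Without day 21 replicate 2 in the fit 6 were tested. At day 5, 4 of them rose and 1 fell, against 17.4% and 14.9%. At days 14 and 21, 5 rose, where 7178 and 6865 of all 20694 tested genes rose. Per 100 counts of Adgre1, which encodes the macrophage surface protein F4/80, there were 31.0 ± 5.41 counts of C3ar1 in controls (SD, n = 3), 26.6 ± 5.82 at day 5, 59.7 ± 5.59 at day 14 and 74.3 ± 37.7 at day 21. For C5ar1 the same measure was 8.44 ± 0.33, 21.5 ± 3.76, 13.7 ± 2.24 and 24.8 ± 12.6, and for Cfp 57.0 ± 4.85, 86.4 ± 14.5, 43.0 ± 3.05 and 52.7 ± 26.4, in the same order. Per 100 counts of the leukocyte gene Ptprc, Cfp stood at 27.4 ± 6.12, 31.0 ± 6.86, 29.5 ± 3.14 and 32.0 ± 14.3, and C3ar1 at 14.9 ± 4.15, 9.55 ± 2.61, 40.8 ± 2.49 and 44.3 ± 17.5. Relative to Ptprc, the day 14 libraries overlapped the controls for Cfp, and they lay above all controls for C3ar1. C5ar1 stood at 3.42 to 4.78 counts per 100 of Ptprc in controls, 6.60 to 9.30 at day 5, 7.63 to 11.4 at day 14 and 8.17 to 21.5 at day 21, above all controls at each day. The part of leukocyte number in these values was not tested.

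**Figure D3:**
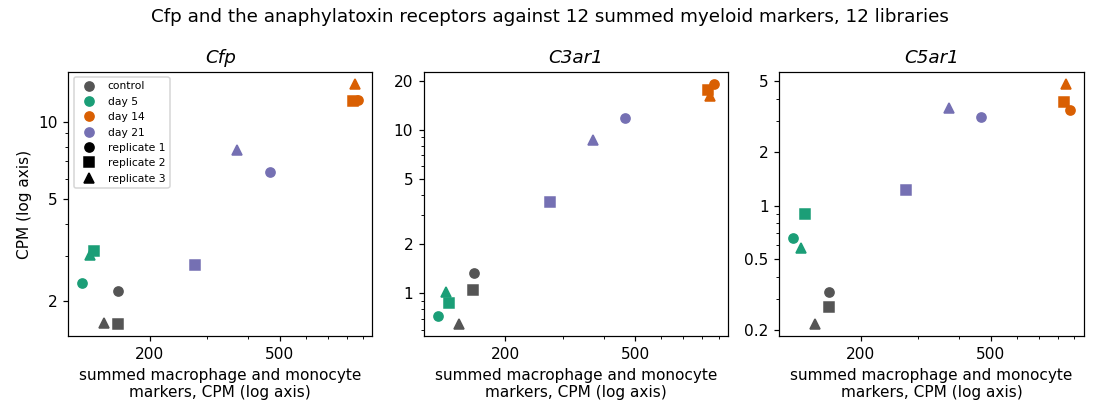
Level of Cfp, C3ar1 and C5ar1 in each library against the summed level of 12 macrophage and monocyte markers, in CPM on log axes. Day 14 libraries lie at the upper right (835 to 870.2 CPM of markers), and at day 5 C5ar1 lies above its control values while the marker sum is 124 to 135 CPM.

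Cd55, the decay-accelerating regulator of convertases, moved in the opposite direction. It was at 19.2, 14.8 and 15.4 CPM in controls, 6.83, 10.3 and 9.70 CPM at day 5, 4.44, 4.79 and 3.63 CPM at day 14, and 3.95, 11.3 and 5.01 CPM at day 21. All toxin libraries lay below all controls, and the highest day 21 value was that of replicate 2. The day 5 difference of -0.88 ± 0.33 did not pass with all libraries (adjusted p = 0.101) and passed without day 21 replicate 2 (-0.87 ± 0.17, adjusted p = 0.00205). Cd55 fell by 1.94 ± 0.34 at day 14 (adjusted p = 0.000672) and by 1.29 ± 0.33 at day 21 (adjusted p = 0.0125). The day 21 call was lost without day 21 replicate 3 (-1.12, adjusted p = 0.0511), and without day 21 replicate 2 the fall was 1.88 ± 0.20 (adjusted p = 8.3e-06). From day 5 to day 14 Cd55 fell by 1.06 ± 0.34 (adjusted p = 0.0216), a call lost with library totals (-0.48, adjusted p = 0.129) and when day 5 replicate 2 or 3 or day 14 replicate 1 or 3 was left out (adjusted p from 0.0517 to 0.0725). Day 21 against day 5 gave -0.42 ± 0.33 (adjusted p = 0.354) with all libraries and a fall of 1.01 ± 0.20 (adjusted p = 0.00118) without day 21 replicate 2. The near copy Cd55b had 1 to 13 counts per library, and Gm16083, which lies across Cd55 on the other strand, had 0 to 2. The ratio of C3 to Cd55 in CPM per kilobase was 0.874 to 1.45 in controls and 34.2 to 57.0 at day 5. It was 664 to 756 at day 14, and 273, 20.3 and 269 at day 21.

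Cd59a, the inhibitor of the membrane attack complex, was lower at days 5 and 14 and not at day 21. Its level was at 43.6, 39.9 and 48.9 CPM in controls, 28.2, 30.3 and 29.0 CPM at day 5, 32.0, 33.2 and 34.5 CPM at day 14, and 42.2, 43.5 and 59.5 CPM at day 21. The day 5 and day 14 libraries lay below all controls, and the day 21 libraries overlapped them. Cd59a fell by 0.60 ± 0.13 at day 5 (adjusted p = 0.00922) and by 0.41 ± 0.13 at day 14 (adjusted p = 0.0153), and differed by 0.13 ± 0.13 at day 21 (adjusted p = 0.395). Day 14 differed from day 5 by 0.19 ± 0.13 (adjusted p = 0.229), although the libraries of the 2 groups did not overlap. That difference was called with library totals (0.77, adjusted p = 0.00465) and with only the 6 libraries compared (0.19, adjusted p = 0.0112). From day 14 to day 21 Cd59a rose by 0.54 ± 0.13 (adjusted p = 0.0188). This call was lost without any 1 of the day 14 libraries (adjusted p from 0.0511 to 0.0741) and with library totals (0.32, adjusted p = 0.261). Compared with day 5 it rose by 0.73 ± 0.13 at day 21 (adjusted p = 0.00382). The direction at day 14 depended on the scaling, with 0.32 (adjusted p = 0.14) under library totals, under which day 5 gave -0.46 (adjusted p = 0.141) and day 21 gave 0.63 (adjusted p = 0.014). Its near copy Cd59b, with 106 to 201 counts per library, fell by 0.50 ± 0.15 at day 5 (adjusted p = 0.0433) and by 0.51 ± 0.15 at day 14 (adjusted p = 0.0119), and reads could be shared between the copies.

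**Figure D4:**
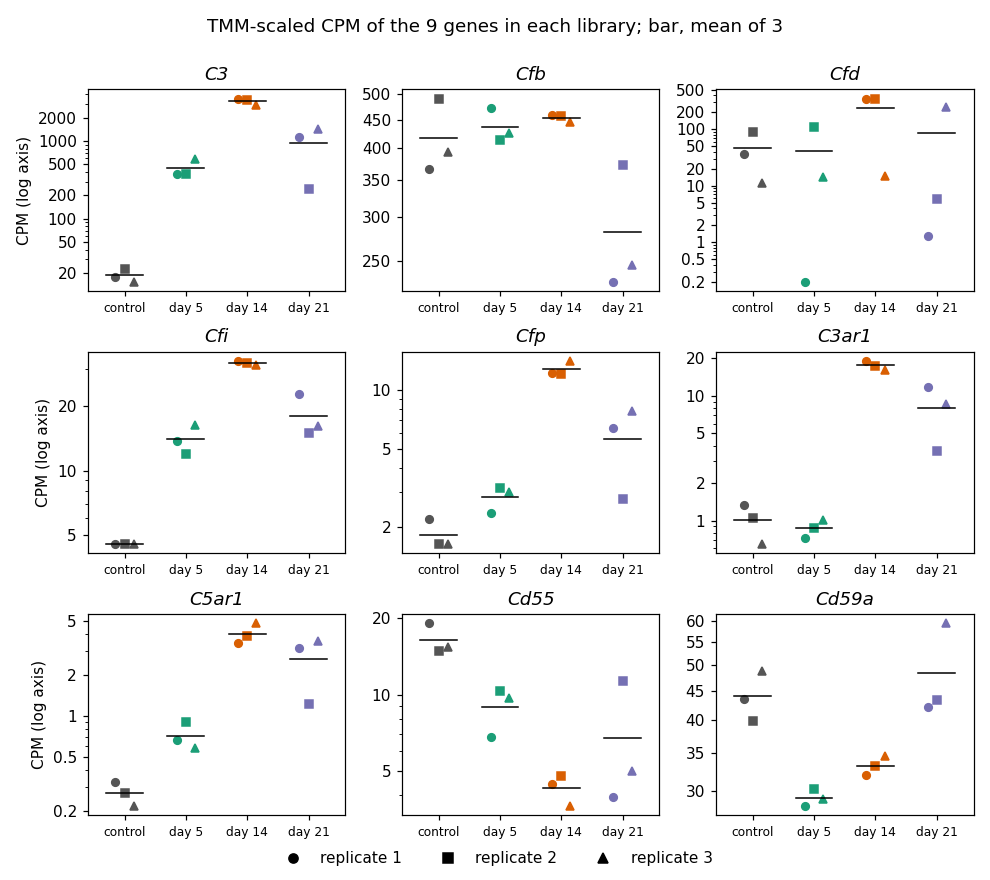
Level of each of the 9 genes in each library, in CPM on a log axis that differs between panels, with a bar at the mean of 3 libraries. C3, Cfi, Cfp, C3ar1 and C5ar1 are highest at day 14, Cd55 is lowest there, and day 21 replicate 2 (square) lies nearest to the controls of its group for C3, Cfp, C3ar1, C5ar1 and Cd55.

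By count, 2 of the 9 genes rose at day 5 (C3 and Cfi) and 1 fell (Cd59a), where 9.77% of all tested genes rose and 5.09% fell. Without day 21 replicate 2 in the fit, 4 rose and 2 fell, against 17.4% and 14.9% of tested genes. At day 14, 5 rose (C3, Cfi, Cfp, C3ar1 and C5ar1) and 2 fell (Cd55 and Cd59a), against 31.2% and 28.8% of all genes, and at day 21 the same 5 rose and 2 fell (Cfb and Cd55), against 24.3% and 18.5%. Without day 21 replicate 2 the day 21 counts were again 5 and 2, against 33.2% and 28.4%. The median log2 change of the 9 genes was 0.07, 2.80 and 1.63 at days 5, 14 and 21, where the median of all genes was 0.004, 0.077 and 0.067. These 3 comparisons share their control libraries. Between day 5 and day 14, 5 rose (C3, Cfi, Cfp, C3ar1 and C5ar1) and 1 fell (Cd55), against 24.7% and 26.1% of all genes. Between day 14 and day 21, 1 rose (Cd59a) and 5 fell (C3, Cfb, Cfi, Cfp and C3ar1), against 7.03% and 7.57%. From day 5 to day 21, 4 rose (Cfp, C3ar1, C5ar1 and Cd59a) and 1 fell (Cfb), against 15.0% and 11.8%, and without day 21 replicate 2 the counts were 6 (C3 and Cfi in addition) and 2 (Cd55 in addition), against 27.9% and 27.7%.

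**Figure D5:**
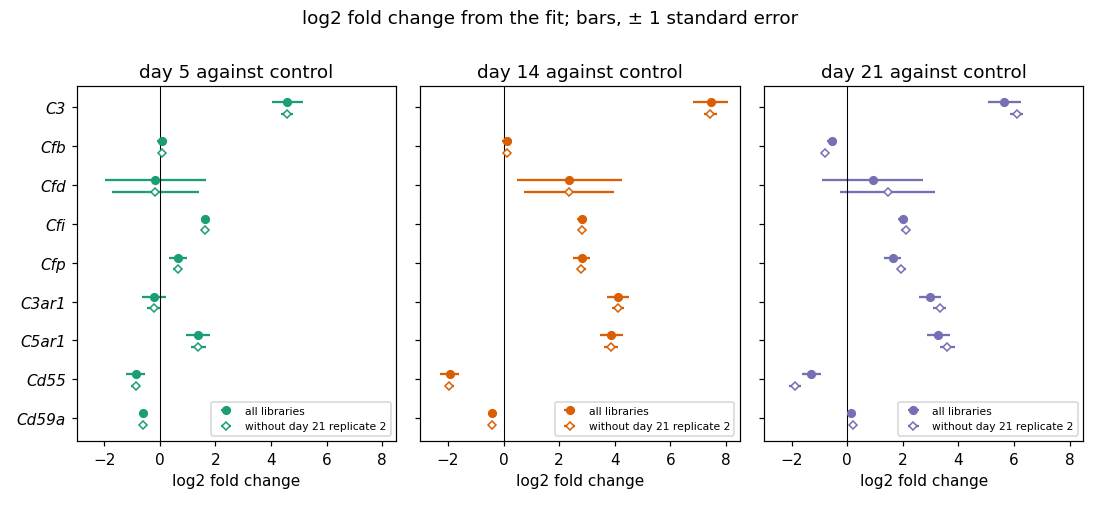
Log2 fold change of each gene against control at each day, with bars of 1 standard error, with all libraries (filled) and without day 21 replicate 2 (open). C3 leads at every day, Cfd has the widest bars, and Cd55 lies below 0 at every day.

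The wider pathway was read from a list of 29 other genes of the terminal pathway, regulators and receptors, chosen for function, of which 20 could be tested. Of these, 5 rose and 1 fell at day 5, where 9.77% and 5.09% of all tested genes did. At day 14, 12 rose and 5 fell, against 31.2% and 28.8%, and at day 21, 11 rose and 1 fell, against 24.3% and 18.5%, with median log2 changes of 0.21, 1.47 and 0.88. Without day 21 replicate 2, 22 could be tested, of which 8 rose and 3 fell at day 5, against 17.4% and 14.9% of all genes. At day 14, 13 rose and 6 fell, where 7178 of all 20694 tested genes rose and 6394 fell. At day 21, 13 rose and 5 fell, against 33.2% and 28.4%. At day 5 the smallest adjusted p-values were those of Thbd, the endothelial cofactor thrombomodulin (1.28 ± 0.11, adjusted p = 5.77e-05), of Cpn1, the catalytic subunit of the carboxypeptidase N that inactivates anaphylatoxins (0.64 ± 0.09, adjusted p = 0.00118), and of C7, a component of the membrane attack complex (1.35 ± 0.25, adjusted p = 0.00491). At day 14 they were those of Itgb2, the beta chain of the leukocyte integrins that include complement receptors for C3 fragments (2.76 ± 0.18, adjusted p = 2.76e-06), Thbd (1.25 ± 0.11, adjusted p = 1.33e-05) and Itgax, an alpha chain that pairs with Itgb2 (3.22 ± 0.29, adjusted p = 1.52e-05). At day 21 they were those of Clu, the soluble inhibitor clusterin (2.95 ± 0.32, adjusted p = 0.000316), Itgb2 (1.58 ± 0.17, adjusted p = 0.000319) and C7 (2.00 ± 0.25, adjusted p = 0.000602).

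Some further genes of that list were picked after their values were seen, because they belong to the C5a and membrane attack steps downstream of C3. C5ar2, the other C5a receptor, rose by 4.19 ± 0.47 at day 14 (adjusted p = 5.26e-05) from 0.0926 to 0.178 CPM in controls. Hc, the gene of C5 itself, had 0 counts in the 3 controls, where up to 3 counts per library are allowed, and 0 to 10 counts in the other libraries, too few to test. C6, a component of the membrane attack complex, rose by 2.04 ± 0.61 at day 5 (adjusted p = 0.0466), by 4.13 ± 0.59 at day 14 (adjusted p = 0.000206) and by 3.30 ± 0.59 at day 21 (adjusted p = 0.00277), from 3 to 10 counts per control library. Of the C8 chains, C8a had 603 to 779 counts in controls, 1 or 2 at day 14, and 3, 419 and 1 at day 21, and C8g fell by 3.20 ± 0.45 at day 14 (adjusted p = 0.000194). The sum of the proximal tubule markers, at 35370 to 43300 CPM in controls and 1693 to 1755 CPM at day 14, moved with C8a. It was also high in day 21 replicate 2 (22510 CPM). Most of the sum in controls was Kap, whose mean was 30320 CPM there and 473 CPM at day 14. Of the 8 markers, 8 fell at day 14, against 28.8% of all tested genes. The part of the proximal tubule in the C8a values was not tested.

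For each of the 9 genes, the 3 tested genes with the most similar course over the 12 libraries were taken, by the root mean square difference of centred log2 CPM, which grows with a gene's own spread and does not rank the genes against each other. For Cfp they were Emp3 (0.157), Cmtm3 (0.158) and Elf4 (0.179), and for Cfi they were Fblim1 (0.195), Gpr153 (0.205) and Myof (0.219). For C3ar1 they were Clec7a, a receptor for fungal glucans on myeloid cells (0.259), Sirpb1c (0.350) and Mmp2 (0.392), and for C5ar1 they were Ncf1, a subunit of the phagocyte oxidase (0.235), Mex3a (0.238) and Basp1 (0.252). Cd55 was nearest to Wasf3 (0.176), Hsd17b11 (0.179) and Tmco3 (0.184), and Cd59a to Avpi1 (0.097), Impa2 (0.107) and Emc9 (0.115). Beside Gm20547 (0.015), Cfb was nearest to Kctd21 (0.138) and Gm7887 (0.144). For C3, whose own standard deviation over the libraries was 2.79, the nearest were Gm10256 (0.498), Rbmy (0.540) and Gm10352 (0.578), which lie on chromosome Y and whose reads can be split between near-identical copies. Gm10256 had 5 to 9 counts in controls and 1133 to 1811 at day 14. Among the 9 genes themselves the smallest distance was that of Cfi and Cfp (0.519), followed by Cfp and C5ar1 (0.543). These are distances over libraries that share the same groups and scaling, given without a test.

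In the deposited coordinates (GRCm39) C3 spans chr17:57510970-57535136 on the minus strand, Cfb chr17:35075350-35081494 on the minus strand, Cfd chr10:79726687-79728489 on the plus strand and Cfi chr3:129629533-129668981 on the plus strand. Cfp lies at chrX:20791693-20797794, C3ar1 at chr6:122824097-122833120, C5ar1 at chr7:15980668-15993465 and Cd55 at chr1:130366764-130390481, all on the minus strand, and Cd59a lies at chr2:103926146-103945699 on the plus strand. The short gene Mir6978 lies inside C3 on the same strand, with counts of 0% to 0.663% of those of C3.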

How the data were processed

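Kidney RNA of 12 mice in 4 groups of 3, all with batch label 1, was analysed from 1 table of raw counts per gene that the authors deposited. The submitters' processing notes name fastp 0.20.0, featureCounts and build GRCm39. Which aligner and annotation were used, whether counting used strand, and how reads shared between genes were counted is not given in the sources used here. Columns were matched to samples by name. Per the labels the mice of a group are separate biological replicates. Genes were filtered with filterByExpr, library sizes were scaled by TMM factors, and edgeR 4.0.16 in R 4.3.3 fitted a quasi-likelihood model with a term for each group to the whole set of libraries. P-values were adjusted by Benjamini-Hochberg over all tested genes in each of 6 comparisons, with calls at an adjusted p under 0.05. The SE of a log2 fold change is its size over the root of F. Log2 CPM used a prior count of 2. The fit was run on simulated counts in which all groups had the profile and spread of the controls and few genes changed. These data have far more changed genes and a library that stands apart, so that run does not show how the fit performs on them.

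The genes, lists and tests were chosen with earlier results of these data known. The rule for naming took all 9 members, the 3 other pathway genes with the smallest adjusted p per comparison with control and the 3 most similar genes per member whose mean log2 CPM was not under 1. Alternatives covered other scalings and filters, the prior count, a minimum log2 fold change, DESeq2 1.42.0, limma 3.58.1, fits on the 6 libraries compared, a replicate block and leaving out each library. The promoter sequences come from RefSeq on another build than the counts, and no coordinates were converted. Promoters of Cfb and Cfi and protein sequences were not used here.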

Additional observations from a re-analysis of the deposited data

How the results depend on the processing

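Of 837 values of the 9 genes recomputed under alternatives, 753 kept their direction and their side of the threshold, 65 lost the call, 18 gained it and 1 reversed, which was Cd59a at day 14 with library totals (0.319). Changes of sign in values that passed in neither setting, 10 in all, are counted as kept. Shares in brackets below are those of all tested genes called in the same setting. The number of the 9 genes called at day 5 against control was 3 (14.9%). It was 5 with DESeq2 (19.3%), 6 with only the 6 libraries compared (38.4%) and 6 in the fit without day 21 replicate 2 (32.3%). At day 21 against control it was 7 (42.8%), and 4 with only the 6 libraries (8.9%). For day 21 against day 14 it was 6 (14.6%), and 3 with a minimum absolute log2 fold change of 1 (4.56%). It was 0 by edgeR with only the 6 libraries (1.37%), where 6 had an unadjusted p under 0.05. On all libraries DESeq2 (21.6%) and limma-voom (15%) each called 6. The number ranged from 1 to 6 on leaving out single libraries, and each of the 3 day 14 libraries gave 1 (4.16% to 5.92%). For day 21 against day 5 it was 5 (26.9%), 2 with the minimum fold change (10.8%) and 1 with only the 6 libraries (2.77%). It ranged from 3 to 8 on leaving out single libraries. It was 8 without day 21 replicate 2 (55.6%) and 3 without any other (10.3% to 15.1%). Day 14 counts against control or day 5 stayed within 1.5 times of those given.

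With the replicate number as a replicate block, 4 genes were called for day 21 against day 5, where Cfp was lost (0.93, adjusted p = 0.0522), and the other 5 counts did not move. The deviations of same-numbered libraries correlated by over 0.1 in 4 of 18 pairs (range from -0.14 to 0.171) and 7 were closest to their own number, so the numbers are not treated as pairs.

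Depth limits C5ar1, with 7 to 11 counts in controls, and Cfd in day 5 replicate 1, with 6. A prior count of 0.5 in place of 2 moved the log2 CPM of a library by at most 0.23 for C5ar1 and 0.25 for Cfd. The log2 fold changes of the fit do not use this prior count. With 3 mice a group, the large spread of Cfd leaves changes of several fold undetectable.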
